A study of Mus musculus with 5 samples.

Results

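The 10 genes described here encode homeobox transcription factors that divide the embryonic brain into regions: Otx1, Otx2, Emx1, Emx2, En1, En2, Gbx1, Gbx2, Gsx2 and Vax1. They were chosen by name and not by a measured value, though with earlier results of these data known. They are 10 of the 22350 protein-coding genes annotated on mouse chromosomes 1 to 19 and X. H3K27me3, the trimethyl mark that Polycomb Repressive Complex 2 (PRC2) places on lysine 27 of histone H3, was mapped around them in fibroblasts cultured from mouse embryos (MEFs) by ChIP-Seq, the sequencing of immunoprecipitated chromatin.

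The cells came from MEFs in which exons of Eed, a core subunit of PRC2, are flanked by loxP sites. In the groups used here Eed had not been deleted. These cells were transduced with a lentiviral vector carrying an EF1a promoter and selected with puromycin to express H3.3 K27R, H3.3 K27M or human EZHIP. H3.3 K27M, with methionine in place of that lysine, occurs in diffuse midline glioma, and EZHIP is a protein made in PFA ependymoma, a childhood tumour of the hindbrain. Both inhibit PRC2. H3.3 K27R changes the same lysine to arginine and served as the reference. Each group is 1 transduced line with 1 library, so no value below has a replicate error and no test of a difference between groups could be made. The parental cells and the line lacking EED, which is a single clone, were not analysed here. The 3 deposited peak lists give positions alone, with no height or read count, so the depth is unknown. A gene outside a peak was below the threshold of the peak caller, which does not mean that the mark was absent.

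Homeobox patterning genes are classic PRC2 targets. Most of them have start sites at or near CpG islands, stretches of DNA rich in CG pairs at which PRC2 is recruited, and in cell types that do not use them they commonly carry H3K27me3. In the embryo, OTX2 specifies forebrain and midbrain while GBX2 specifies anterior hindbrain, and the border between the domains of these factors positions the organizer between midbrain and hindbrain. EN1 and EN2 act around that border, EMX1 and EMX2 act in the developing cerebral cortex, and GSX2 and VAX1 act in the ventral forebrain.

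The DNA just upstream of the start sites is shown for a pair of paralogs that differed in marking and for a further marked member. In each window, written 5′ to 3′ on the strand of the gene, capitals mark CG pairs. The windows were read from the mm9 (NCBIM37) sequence and hold 250 bases upstream of the annotated start with no annotated exon. Emx2 has a shorter window because the exon of its antisense neighbour Emx2os begins 55 bp away. Emx2 is shown as the member with the least peak cover around its start, and Emx1 as its paralog with cover in every list. Otx2 was added after its values were seen, as a marked member with few CG pairs.
Emx1 chr6:85137182-85137431 (plus strand): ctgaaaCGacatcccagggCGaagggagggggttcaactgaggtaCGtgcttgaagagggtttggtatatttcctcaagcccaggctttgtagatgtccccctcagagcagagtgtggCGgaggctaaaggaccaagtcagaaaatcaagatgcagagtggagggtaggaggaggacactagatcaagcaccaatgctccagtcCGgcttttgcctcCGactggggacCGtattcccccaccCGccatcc
Emx2 chr19:59533126-59533179 (plus strand): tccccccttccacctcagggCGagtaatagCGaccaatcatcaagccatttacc
Otx2 chr14:49287320-49287569 (minus strand): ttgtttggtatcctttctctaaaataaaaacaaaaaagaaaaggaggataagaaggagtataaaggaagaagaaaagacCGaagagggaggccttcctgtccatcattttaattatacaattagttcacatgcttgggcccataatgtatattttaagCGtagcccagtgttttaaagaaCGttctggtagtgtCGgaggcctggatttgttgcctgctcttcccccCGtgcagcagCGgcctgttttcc

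The windows of Emx1 and Otx2 lay inside peaks of all 3 lists, and that of Emx2 lay inside none. CG pairs, read once since the pair is the same on both strands, numbered 8 in the window of Emx1, 6 in that of Otx2 and 2 in the 54 bases of Emx2. Since the Emx2 window is shorter, its count cannot be set against the others. Over all genes, 92.5% had at least 1 CG pair in the 250 bases upstream, with a median of 8, while 52.5% had at least as many as Emx1 and 59.5% at least as many as Otx2. In the wider window of 500 bp on each side of the start, the members held 24 (Otx2) to 113 (En2) CG pairs with a median of 53, and the median of all genes was 41.

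The first comparison asked which of the 10 genes carried H3K27me3 at the start site in the K27R reference and which still did in cells with an inhibitor. In K27R cells a peak held the start of 8 members: Otx2, Emx1, En1, En2, Gbx1, Gbx2, Gsx2 and Vax1. The K27M list and the EZHIP list each held the starts of the same 8 members. Otx1 and Emx2 had a start outside the peaks of all 3 lists. Of all 22350 genes, which give the background, 30.1% had a start in a K27R peak, 9.02% in a K27M peak, 7.73% in an EZHIP peak and 6.6% in peaks of both inhibitors. Of the 6735 genes with a K27R peak at the start, 21.9% had a peak there in both inhibitor lists. Thus all 8 members that were marked in K27R cells were also marked with either inhibitor, and they belong to the 1476 genes for which this holds. Whether the share among the members differs from the background was not tested, since genes are not replicates.

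**Figure D1:**
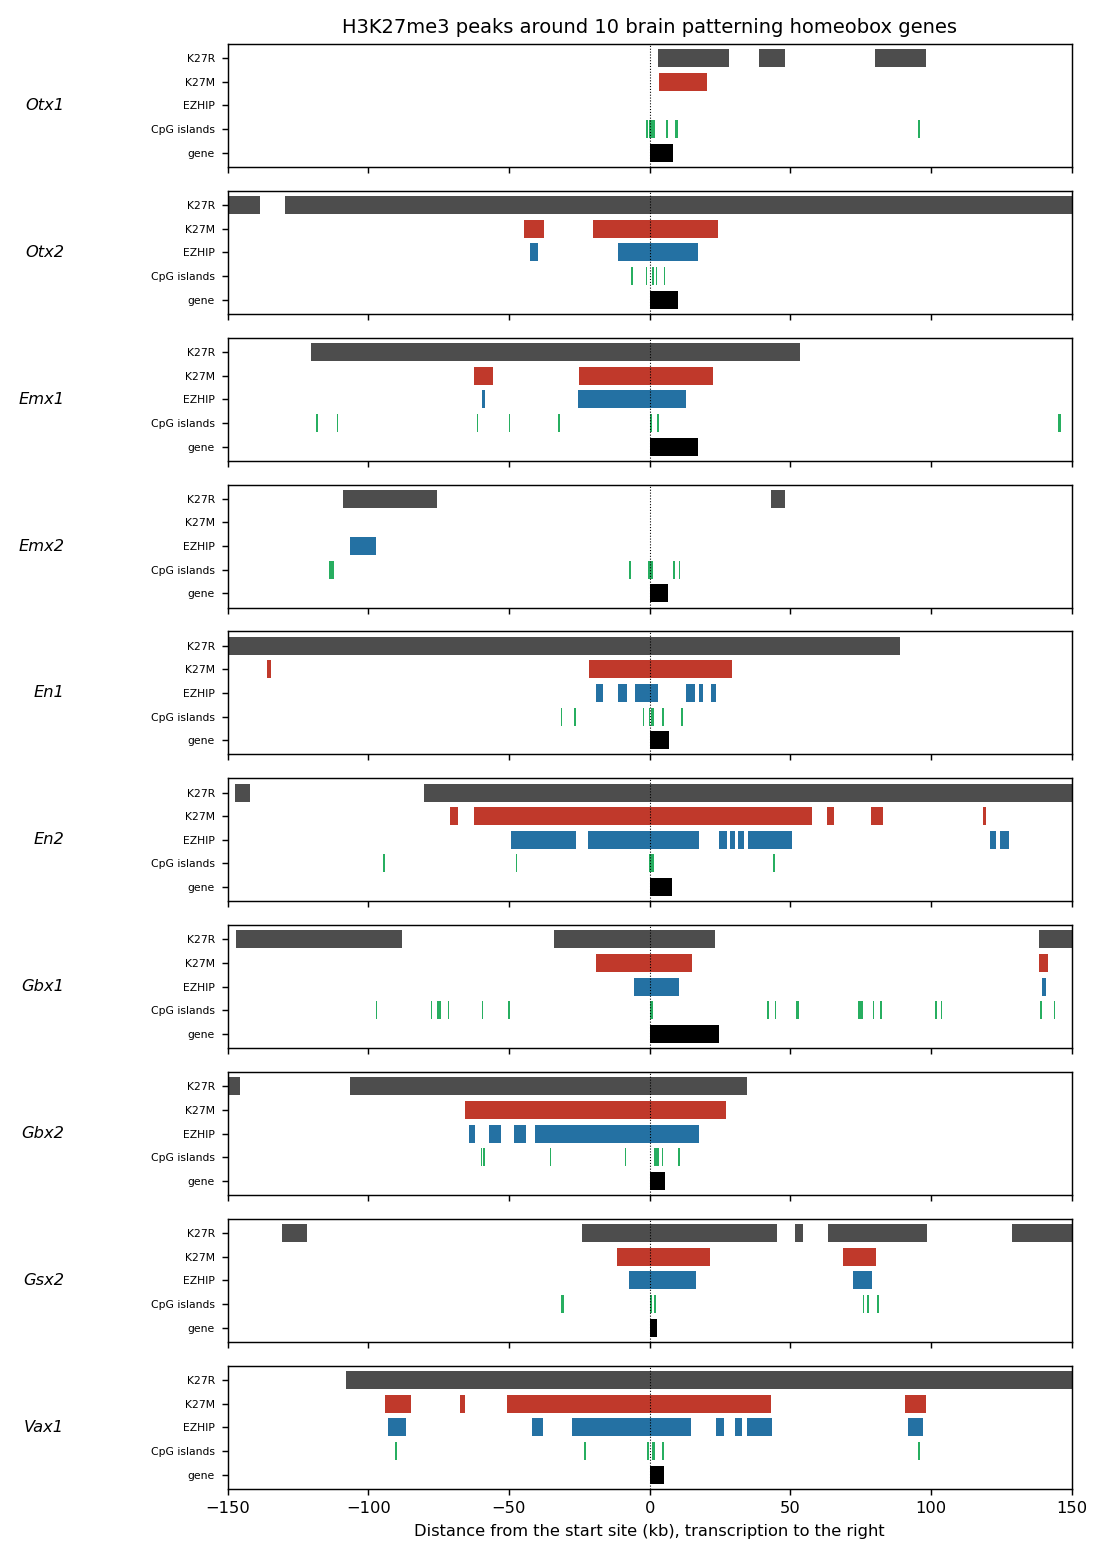
Maps of the 10 genes, each with the K27R, K27M and EZHIP peaks, CpG islands and the gene body drawn against the distance from its start site in kb, with transcription to the right. The K27M and EZHIP peaks lie around the start within a wider K27R region in 8 genes, the peaks over Otx1 itself cover only its 3′ part, in K27R and K27M, and Emx2 has no peak over the gene.

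Peak cover was then measured within 50 kb on each side of the start, a window of 100 kb, to compare how much of the surroundings each list covered. The median cover of the 10 members was 92.2 kb in K27R cells, 49.3 kb in K27M cells and 27.5 kb in EZHIP cells. For the 8 members marked at the start, the medians were 100, 51.2 and 35 kb, and over all genes with a start in all 3 lists they were 81.6, 17.2 and 13.2 kb. Summed over the members, K27M cover was 67.3% of K27R cover and EZHIP cover was 45%, against 13.7% and 11.2% summed over all genes. Sums of this kind follow how much each list covers in all, which was 582.1 Mb in K27R, 50.99 Mb in K27M and 36.49 Mb in EZHIP, with median peak widths of 16.0, 6.8 and 4.4 kb.

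**Figure D2:**
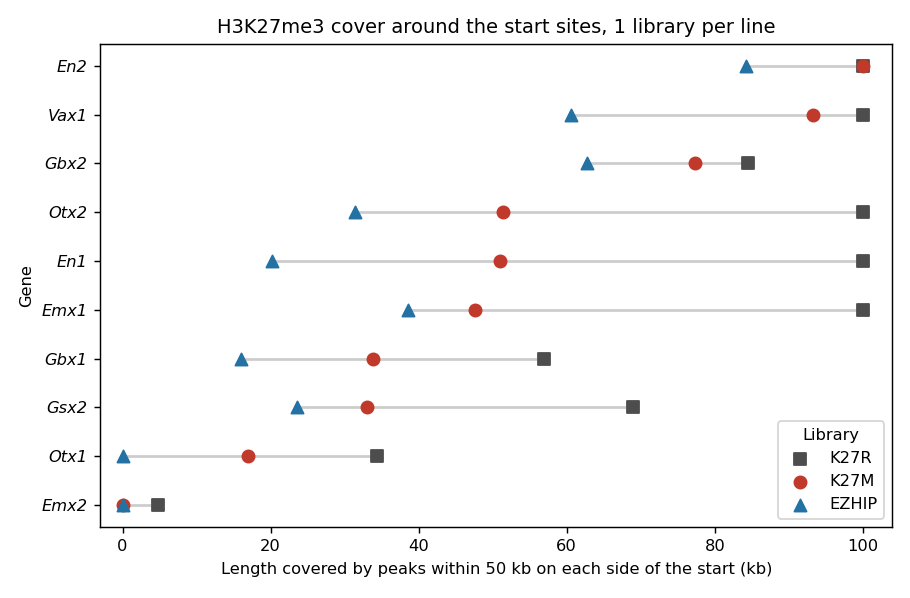
Length covered by peaks, in kb, within 50 kb on each side of the start of each gene, with 1 point per library and no replicates. En2, Vax1 and Gbx2 keep the most in both inhibitor lists (84.2, 60.6 and 62.8 kb in EZHIP cells), and Otx1 and Emx2 have no EZHIP cover.

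The Otx genes encode homologs of the Drosophila head gap factor orthodenticle. Otx2 (ENSMUSG00000021848.9) lies at chr14:49277354-49287319 on the minus strand of mm9. Its window of 100 kb was covered in full in K27R, over 51.4 kb in K27M cells and over 31.4 kb in EZHIP cells. The peak over the start spanned 282.6 kb in K27R cells, 44.4 kb in K27M cells and 28.4 kb in EZHIP cells, and each covered the whole gene, including all 7 annotated transcript starts and all 7 merged exons. Otx2 was the only protein-coding gene with a start in its K27R region. Of this region, 18.2% lay in K27M peaks and 11.1% in EZHIP peaks. Both inhibitor lists held a further peak upstream of the gene, at chr14:49324801-49331800 in K27M and at chr14:49327001-49330000 in EZHIP. The second EZHIP peak lay wholly inside the second K27M peak.

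Otx1 (ENSMUSG00000005917.8), the paralog that acts mainly in later development of the cortex and sense organs, lies at chr11:21894767-21902900 on the minus strand. No peak of any list held its start. A K27R region of 25 kb began 3.1 kb downstream of the start, inside the gene, and ran past its 3′ end. A K27M peak of 17 kb lay within that region and began 3.3 kb downstream of the start. These peaks covered 5.03 kb of the gene body of 8.13 kb in K27R cells and 4.83 kb in K27M cells, and touched 2 of 4 merged exons. No EZHIP peak lay within 50 kb, and the nearest one was 2055.3 kb away. None of the 4 annotated transcript starts lay in a peak, and the nearest was 1.78 kb from the K27R region. Otx1 was the only one of the 10 genes with K27M cover and no EZHIP cover within 50 kb.

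The Emx genes are homologs of Drosophila empty spiracles and act in the dorsal forebrain. Emx1 (ENSMUSG00000033726.8) lies at chr6:85137432-85154456 on the plus strand. Cover around its start was 100 kb in K27R cells, 47.6 kb in K27M cells and 38.6 kb in EZHIP cells. The peak over the start spanned 173.8 kb in K27R cells, 47.6 kb in K27M cells and 38.6 kb in EZHIP cells. In the lists as deposited, Emx1 was the member whose inhibitor peaks were closest in width, with a K27M to EZHIP ratio of 1.23. After merging of peaks up to 10000 bp apart, added after the data were seen, Vax1 (1.10) and Gbx2 (1.14) had lower ratios. The upstream edges of the Emx1 inhibitor peaks were 0.6 kb apart, with the EZHIP edge farther out, and the K27M peak reached 9.6 kb farther downstream. The EZHIP peak ended within the gene and left 1 of its 3 merged exons uncovered.

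Emx2 (ENSMUSG00000043969.3), which in addition to its part in cortical patterning is required for the urogenital system, lies at chr19:59533180-59539847 on the plus strand. It had no peak over any of its 3 transcript starts or 4 merged exons in any list. The nearest K27R peak was 4.8 kb wide and lay 43.2 kb downstream of the start. The nearest K27M peak was 193.6 kb and the nearest EZHIP peak 97.4 kb upstream. The antisense gene Emx2os had no cover in any list. Emx2 lies on the same chromosome as Vax1, whose start is 287.6 kb away, and the K27R region of Vax1 ended 179.8 kb before the Emx2 start. RNA was not measured in the libraries analysed here, so whether Emx2 or Otx1 was transcribed in these fibroblasts was not tested.

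The engrailed genes encode repressors that pattern the midbrain and the cerebellum. En1 (ENSMUSG00000058665.7) lies at chr1:122498995-122505873 on the plus strand. Its cover was 100 kb in K27R cells, 51.0 kb in K27M cells and 20.2 kb in EZHIP cells. The peak over the start spanned 415.6 kb in K27R cells and 51.0 kb in K27M cells, but 8.2 kb in EZHIP cells. That EZHIP peak was 1 of 6 separate EZHIP peaks within 50 kb, all of which lay inside the single K27M peak, and it covered 40.8% of the gene and 1 of 2 exons. The K27M start peak was 6.22-fold as wide as the EZHIP start peak, the highest ratio among the members. When EZHIP peaks up to 10000 bp apart were merged, a choice made for this window after the data were seen, the 6 became 2 and cover rose to 32.4 kb, against 51.0 kb in K27M cells. The EZHIP start peak then spanned 22 kb and the ratio was 2.32, still the highest among the members.

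En2 (ENSMUSG00000039095.7) lies at chr5:28492236-28500152 on the plus strand. Its window of 100 kb was covered in full in K27R and in K27M, and over 84.2 kb in EZHIP cells. The peak over the start spanned 235.6 kb in K27R cells, 120.0 kb in K27M cells and 39.4 kb in EZHIP cells, and each covered both exons. EZHIP cover came from 6 peaks within 50 kb, which merged into 1 peak covering 99.4 kb when gaps up to 10000 bp were closed. K27R peaks filled the window of both engrailed genes, so their equal K27R cover reflects the window size. Their K27R regions spanned 415.6 kb (En1) and 235.6 kb (En2). In both inhibitor lists En2 had more cover than En1.

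GBX2 is the hindbrain partner of OTX2 at the organizer, and GBX1 is a related factor of the spinal cord and basal forebrain. Gbx2 (ENSMUSG00000034486.7) lies at chr1:91824537-91829865 on the minus strand. Its cover was 84.5 kb in K27R cells, 77.3 kb in K27M cells and 62.8 kb in EZHIP cells. The peak over the start spanned 141.0 kb in K27R cells, 93.0 kb in K27M cells and 58.4 kb in EZHIP cells. Of the K27R region, 66.0% lay in K27M peaks and 48.9% in EZHIP peaks, the highest shares among the 8 marked members in both lists. Of the 1728 genes with a start in an EZHIP peak, 42 had a wider EZHIP start peak than Gbx2. Gbx1 (ENSMUSG00000067724.4) lies at chr5:24008575-24033094 on the minus strand. Its cover was 57.0 kb in K27R cells, 33.8 kb in K27M cells and 16.0 kb in EZHIP cells, in each case from 1 peak. This peak covered 94.2% of the gene in K27R, 60.7% in K27M and 42.0% in EZHIP, so that the inhibitor peaks held the first exon and left the second uncovered. The genes that flank the organizer were thus both marked in every list, and Gbx2 had more K27M and EZHIP cover than Otx2 but less K27R cover.

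Gsx2 (ENSMUSG00000035946.6), which patterns the ventral telencephalon, lies at chr5:75471489-75473918 on the plus strand. A second annotated entry of the gene starts 137 bp away, and the first was used. Its cover was 69.0 kb in K27R cells, 33 kb in K27M cells and 23.6 kb in EZHIP cells, each from 1 peak that covered the whole gene. Vax1 (ENSMUSG00000006270.4), a factor of the optic stalk and the ventral forebrain, lies at chr19:59240677-59245626 on the minus strand. Its cover was 100 kb in K27R cells, 93.2 kb in K27M cells and 60.6 kb in EZHIP cells. The Vax1 start lay in the widest K27R region of the set, at 444.2 kb, and in peaks of 94.0 kb in K27M cells and 42.6 kb in EZHIP cells. Within this region the inhibitor lists held 5 K27M peaks and 11 EZHIP peaks.

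The peaks over the starts were next compared with those of other genes. In K27R, start peaks of the members spanned 57.0 to 444.2 kb with a median of 204.7 kb, and 6 of 8 exceeded the median of 96.8 kb over the 6735 genes with a K27R peak at the start. In K27M they spanned 33 to 120 kb with a median of 49.3 kb, and 8 of 8 exceeded the median of 11.8 kb over 2015 genes. In EZHIP they spanned 8.2 to 58.4 kb with a median of 33.5 kb, and 7 of 8 exceeded the median of 8.4 kb over 1728 genes, the exception being En1. The lowest share of genes with a narrower start peak was 34.8% in K27R (Gbx1), 78.6% in K27M (Gsx2) and 48.3% in EZHIP (En1).

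The K27M start peak was wider than the EZHIP start peak in 8 of 8 members, with a median ratio of 1.85. After merging of peaks up to 10000 bp apart it was wider in 8 of 8, with a median ratio of 1.38 and a range of 1.10 (Vax1) to 2.32 (En1). Of the 1476 genes with a start in both lists, 78.7% had a wider K27M peak. Within 50 kb, K27M cover exceeded EZHIP cover in the 9 members that had either, against 58.7% of the 6628 genes with cover in either list. Within 10 kb it did so in 4 members (Otx1, En1, Gbx1 and Gsx2), against 59.0% of 3609 genes, since both lists covered that window in full for Otx2, Emx1, En2, Gbx2 and Vax1. The lists differed in how neighbouring peaks had been joined. The shortest gap was 5200 bp among K27M peaks, 1200 bp among EZHIP peaks and 200 bp among K27R peaks. With peaks up to 10000 bp apart merged in every list, K27M cover within 50 kb still exceeded EZHIP cover in 9 members. The part of library depth and of the peak calling in these differences was not tested.

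The shape of the cover around the start was read in bins of distance over the 8 marked members. Within 10 kb on each side, K27M peaks covered all of the sequence. Cover in K27M fell to 76.9% at 10 to 25 kb upstream, 41.0% at 25 to 50 kb, then 12.3% at 50 to 100 kb. Downstream it was 85.9%, 24.9% and 8.29% in the same bins, so that the 25 to 50 kb bin was covered less than on the upstream side. Cover in EZHIP was complete within 5 kb upstream, 75.5% at 5 to 10 kb, 51.8% at 10 to 25 kb, 26.9% at 25 to 50 kb, then 3.45% at 50 to 100 kb. Downstream of the start EZHIP cover was 94.5% within 5 kb, 87.5% at 5 to 10 kb, 37.3% at 10 to 25 kb, 16.9% at 25 to 50 kb, then 3.24% at 50 to 100 kb. Over all 1476 genes marked in the 3 lists, cover from 10 to 25 kb upstream was 22.2% in K27M and 17.3% in EZHIP. From 100 to 200 kb the members had less cover than these genes in both inhibitor lists, with 1.09% against 6.33% upstream in K27M. Inhibitor peaks around the members were thus wide but local, while K27R cover was 51.9% from 100 to 200 kb upstream.

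**Figure D3:**
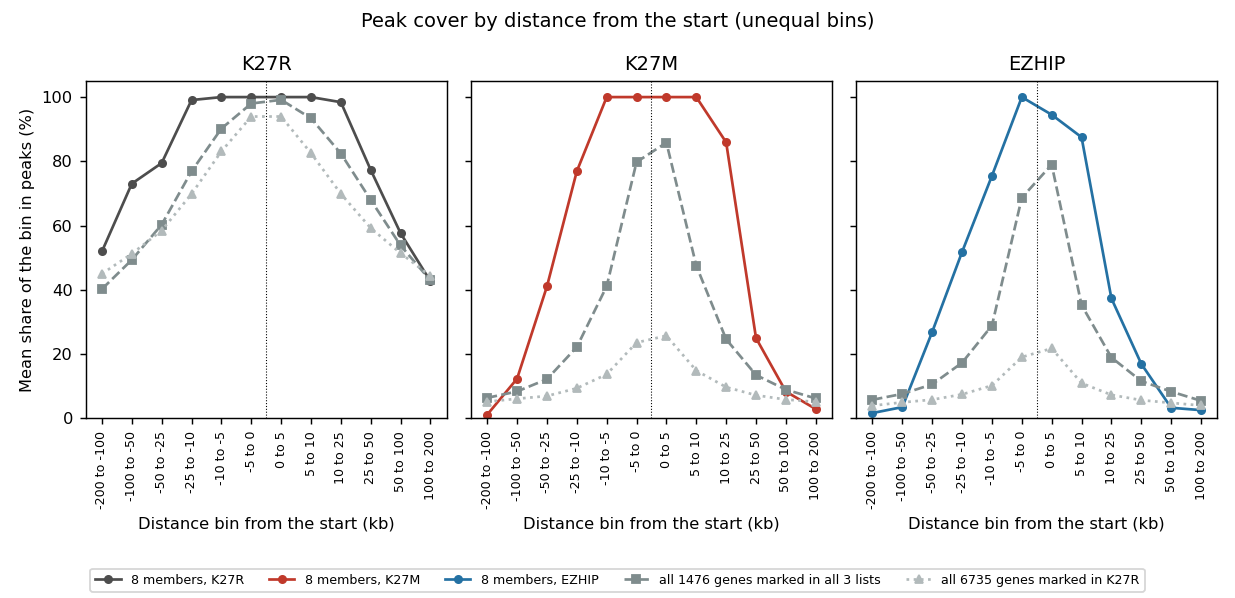
Mean share of each distance bin covered by peaks, in %, against distance from the start in kb in bins of unequal width, for the 8 members with a marked start and for all genes marked in the same lists, in the 3 libraries. From 10 to 25 kb upstream the members reach 76.9% in K27M and 51.8% in EZHIP, against 22.2% and 17.3% for all genes marked in all 3 lists.

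The 8 K27R regions that held a member start spanned 1818.8 kb in all. K27M peaks held 33.1% of this length and EZHIP peaks 21.2%, against 8.73% and 6.26% of all K27R regions. Regions with inhibitor peaks at a start hold more of them by construction, so the nearer comparison is with the genes marked in all 3 lists. Their median share of the region was 21.9% in K27M and 17.8% in EZHIP, and that of the members was 39.5% and 25.5%. Between 94.2% and 100% of the EZHIP length in each region lay inside K27M peaks, with the lowest value in En2, whereas 43.3% to 74.2% of the K27M length lay inside EZHIP peaks. The EZHIP peaks of these loci were therefore nearly contained in the K27M peaks. In the 8 regions, 377 kb lay in peaks of both inhibitors, 224.2 kb in K27M peaks alone and 7.8 kb in EZHIP peaks alone. Over all K27R regions these lengths were 27217, 23597.4 and 9228.4 kb, so most EZHIP length lay inside K27M peaks there too. The peak over the start held 86.0% of the K27M length in the 8 regions and 66.3% of the EZHIP length. The rest was in 12 further K27M peaks and 28 further EZHIP peaks.

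CpG islands were examined because PRC2 is recruited to many of them. Islands were found in the mm9 sequence as stretches over 200 bp with at least 50% G+C and a ratio of observed to expected CG pairs above 0.6. Repeats were not excluded, and the UCSC island annotation that the authors used was not applied. The 10 members had 45 islands within 50 kb of their starts, of which 34 overlapped a K27R peak, 30 a K27M peak and 26 an EZHIP peak. Of all 27075 islands, 25.2% overlapped a K27R peak, 11.4% a K27M peak and 9.65% an EZHIP peak. For the 8 marked members, 32 of 36 islands overlapped K27R peaks, and of these 28 overlapped K27M and 26 EZHIP peaks. Among all islands in K27R peaks, 45.2% overlapped a K27M peak and 38.2% an EZHIP peak. The 8 marked members have inhibitor peaks over their starts, so islands near those starts lie in such peaks more often by construction. Overlap with peaks was not counted for islands near other genes marked in every list, so a difference from those genes was not tested. All islands within 50 kb of Otx2, En2, Gbx2 and Vax1 were in peaks of every list.

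The start site itself lay in an island in 6 members, against 46.0% of all genes. These were Otx1, Emx1, Emx2, En1, En2 and Gsx2. The start of Gbx1 was 7 bp from an island of 1274 bp, and those of Vax1, Otx2 and Gbx2 were 462, 920 and 1557 bp from the nearest one. An island at the start did not separate marked from unmarked members. The start of Emx2 lay in an island of 2069 bp, the widest among the members, and none of its 4 islands overlapped a peak. In Otx1, the 3 islands around the start, among them one of 1408 bp, lay outside all peaks. The 2 islands farther inside Otx1, 388 and 1039 bp wide, lay in the K27R region and in the K27M peak but in no EZHIP peak.

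Within the 8 regions, the sequence in peaks of both inhibitors held 15.7 (En2) to 24.1 (Gbx1) CG pairs per kb, and the sequence in neither held 7.82 (En2) to 12.1 (Gbx1). The former was higher in 8 of 8 regions, by a factor of 1.5 (Vax1) to 2.47 (En1). Over all K27R regions the same densities were 19.1 and 8.87 CG pairs per kb, with 11.9 in K27M peaks alone and 12.2 in EZHIP peaks alone. Sequence in K27M peaks alone was above the sequence in neither list in 5 of 8 regions, the exceptions being Otx2, En2 and Vax1. In the K27R region of Otx1 the part in the K27M peak held 24.3 CG pairs per kb and the rest 7.25. In the 8 regions CG density was thus higher where both lists had peaks than where neither did. Otx1 had a high density in its K27M peak without any EZHIP peak. The part of CG density in the marking was not tested.

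**Figure D4:**
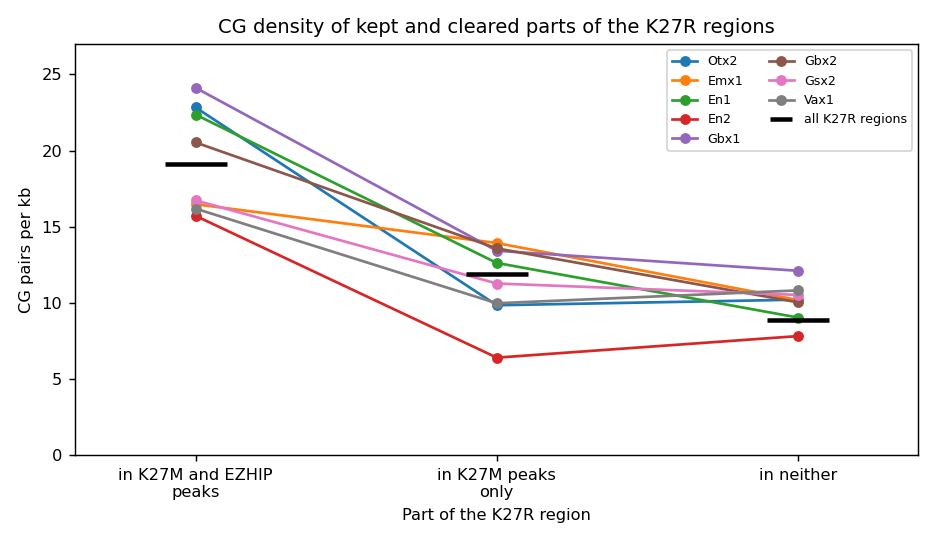
CG pairs per kb in the parts of each K27R region that lay in peaks of both inhibitors, in K27M peaks only and in neither list, with 1 line per gene and black bars for all K27R regions. All 8 lines fall from the first part (15.7 to 24.1) to the last (7.82 to 12.1).

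Islands were then counted in the separate inhibitor peaks. In K27M, 12 of 20 peaks inside the regions overlapped an island, and their median width was 39.1 kb against 2.4 kb for those that did not. In EZHIP, 13 of 36 peaks overlapped an island, with medians of 23.2 and 2.6 kb. All 8 peaks over a start overlapped an island in each list, and away from the starts 4 of 12 K27M peaks and 5 of 28 EZHIP peaks did. A wider peak has more room for an island, which these counts do not correct for.

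Neighbouring genes show how far the marking reached. The members had 29 protein-coding neighbours that were nearest on either side or shared a K27R region, of which 18 had a start in a K27R peak, 9 in a K27M peak and 5 in an EZHIP peak. Of 17 that shared a K27R region with a member, 8 had a start in a K27M peak and 4 in an EZHIP peak. Those 4 were in both lists, as were 21.9% of all 6735 genes with a K27R peak at the start. The members of these regions were in both lists, which repeats the count given earlier. The region of Vax1 held the starts of Hspa12a, Eno4, 4930506M07Rik, Kcnk18 and Slc18a2, which encodes the vesicular monoamine transporter. Slc18a2 and 4930506M07Rik were also in both inhibitor lists, Kcnk18 was in K27M only, and Hspa12a and Eno4 were in neither. In the region of Emx1, the starts of Exoc6b, Spr and Spr-ps1 were in neither inhibitor list and that of Gm5878 was in K27M only. In the region of En1, C1ql2, which encodes a secreted synaptic protein, was in both lists and the macrophage receptor gene Marco in neither. Cnpy1, beside En2 and known for promoting FGF signalling at the midbrain-hindbrain border, was in K27M only, as was Asb10 beside Gbx1, while Rbm33 and 4931409K22Rik were in neither. D130058E05Rik, which overlaps Gbx2 on the other strand, was in both, and Asb18 was in neither.

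Other genes of brain patterning were counted in the same way. In a list of 56 genes chosen by role, with earlier results of these data known, 43 starts lay in K27R peaks (76.8%), 35 in K27M peaks (62.5%), 36 in EZHIP peaks (64.3%) and 34 in both (60.7%). By role, starts were in K27R, K27M and EZHIP peaks for 9, 7 and 8 of 12 genes of the midbrain-hindbrain organizer, such as Fgf8, Wnt1 and Pax2, for 19, 16 and 16 of 21 forebrain genes, such as Six3, Lhx2 and Pax6, and for 9, 8 and 8 of 12 signal genes, such as Shh and Wnt3a. Of 8 hindbrain segmentation genes, 3, 2 and 2 were marked. Of the paralogs of the members, Gsx1 and Vax2 were in all 3 lists, and Crx, the photoreceptor member of the Otx family, was in K27R alone. A tie of 11 genes stood at full cover by both inhibitors within 10 kb of the start, among them Barhl2 and Lhx5.

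Like Otx1 and Emx2, 13 of the 56 genes had no K27R peak at the start. Among these were Fgf18, Pax8, Irx1, Nr2f2, Hoxa2, Hoxb2, Meis1, Meis2, Gli3, Bmp4 and Cer1. Fgf18, Irx1 and Nr2f2 had a K27R peak within 5 kb of the start, at 2.2, 1.63 and 2.18 kb, as Otx1 did at 3.1 kb, and Meis1 had one at 6.04 kb.

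**Figure D5:**
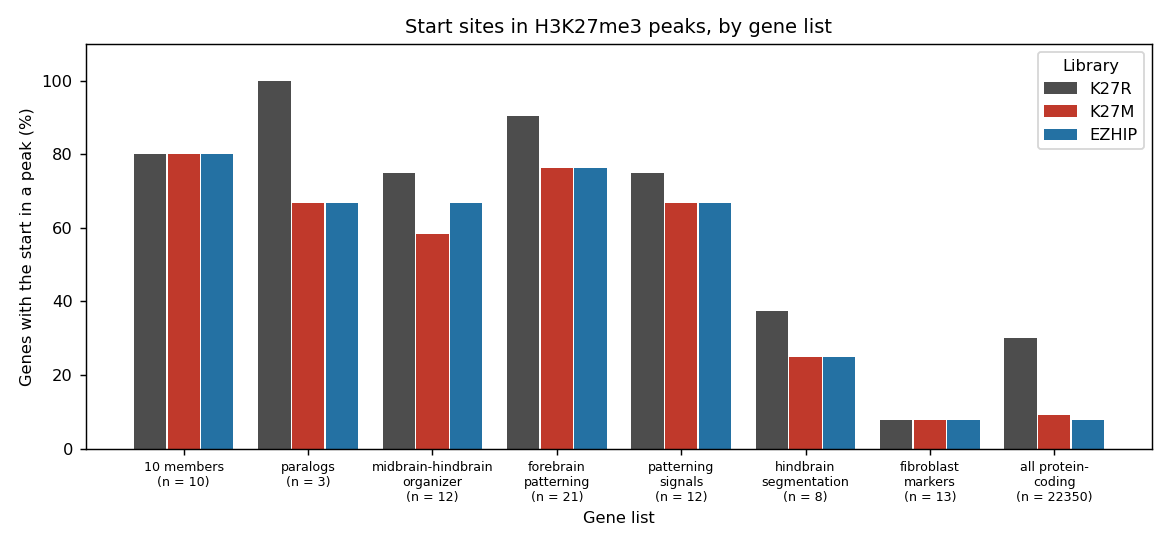
Share of genes with the start in a peak, in %, for the 10 members, the other lists of patterning genes, a list of fibroblast markers and all protein-coding genes, in the 3 libraries. The members stand at 80.0% in each list, fibroblast markers at 7.69%, and all genes at 30.1, 9.02 and 7.73%.

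The cell type in the labels was checked against marker genes. Of 13 fibroblast markers, among them Col1a1, Col1a2, Vim and Fn1, 12 had no peak of any list at the start. The exception was Pdgfra, a neighbour of Gsx2 with its start 76.8 kb downstream, which lay in peaks of 35.2 kb in K27R cells, 11.8 kb in K27M cells and 7.0 kb in EZHIP cells. Of 6 annotated neural markers, 5 starts were in K27R peaks and 4 in peaks of each inhibitor. Of 12 housekeeping genes, 2 starts (Hprt and Pgk1, on the X chromosome) were in K27R peaks and 0 in those of K27M or EZHIP.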

How the data were processed

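H3K27me3 ChIP-Seq peak lists of 3 MEF lines (K27R, K27M and EZHIP, 1 library each) were analysed. The series holds 5 samples, and groups were taken from the sample titles. The antibody label writes H2K27me3, which was read as H3K27me3 after the titles. Per the labels and methods, the authors crosslinked cells, digested chromatin with MNase, immunoprecipitated H3K27me3 and aligned reads with Bowtie 1.0.0 to mm9 and to a spike-in genome. Broad peaks were called by the authors with MOSAiCS-HMM. The methods set a false discovery rate, a maximum gap, a minimum size and a threshold for these calls. Each deposited list held gaps shorter than the maximum gap of 10000 bp stated there. Whether the spike-in scaling entered the calls is not given in the sources used here.

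The deposited values are positions in bp, on a grid of 200 bp, printed here counting from 1. The NCBIM37 (mm9) sequence with its GENCODE vM1 annotation was used without conversion. A gene start was the 5′ end of the gene. Overlap meant at least 1 bp. CpG islands scored 17 for CG and -1 for other bases. Python 3.11.15, numpy 2.4.6, pandas 2.3.3 and numba 0.67.0 were used. On simulated data the interval tools gave 0 disagreements over 50 lists, and the island finder recovered 100% of 200 planted islands. With 1 library per group no p-value was computed. The members and gene lists were chosen with earlier results of these data known. All 10 members are named. Of other genes, the text names neighbours nearest to a member or in its K27R region, and patterning genes with no K27R peak at the start or with the longest cover by both inhibitors within 10 kb. Some genes and windows that this rule selects are not reported here. Other genes are named as examples of their list, chosen after their values were seen. Alternatives were minimum widths of 2000 and 5000 bp, merging up to 10000 bp, other windows (5 and 50 kb), the start of the longest coding transcript, a distance of 5000 bp, the gene body, and islands of at least 500 bp.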

Additional observations from a re-analysis of the deposited data

How the results depend on the processing

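Of 56 alternative values, 43 stayed within 1.5 times the value reported and within its interval, where computed. The other 13 moved further and 0 reversed in direction. Such intervals treated members as independent draws, though genes are not replicates, and do not measure experimental error. Counts and lengths within a list have no direction that could reverse. The counts of members marked at the start stayed at 8 in every list, with 1 exception. Otx1 raised the K27R and K27M counts to 9 when a peak within 5000 bp or over the gene body was accepted. Of these alternatives, only the start of the longest coding transcript could have lowered the counts. The narrowest start peak was 8.2 kb, above the minimum widths, and merging, the distance and the gene body can only add members. The remaining shifts follow from the size of the window or of the islands. Median cover within 10 kb of the start was 20 kb in K27R cells, 20 kb in K27M cells and 18.6 kb in EZHIP cells. Within 50 kb it was 92.2, 49.3 and 27.5 kb, and within 5 kb it was 10.001 kb, the whole window, in each list. With merging of peaks up to 10000 bp apart, added after the data were seen, the medians within 50 kb were 92.2, 49.3 and 31.9 kb. Members with more K27M than EZHIP cover numbered 4 within 10 kb, 2 within 5 kb, 9 within 50 kb and 9 within 50 kb after merging. Islands in EZHIP peaks were 57.8% of all those within 50 kb and 72.7% of those of at least 500 bp. No paired analysis was possible because each group has 1 library and no test was made. After merging, added for this comparison after the data were seen, the K27M start peak was wider than the EZHIP start peak in 8 of 8 members as before, and the median ratio fell from 1.85 to 1.38. Without replicates, read counts or depth, a difference between lists could not be set against experimental error.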

Other observations

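In the lists as deposited, Gsx2 and its neighbour Pdgfra lay in separate H3K27me3 peaks. The K27R region of Gsx2 spanned 69.0 kb and held no other protein-coding start, while Pdgfra lay in a K27R region of its own of 35.2 kb. The former ended 45111 bp and the latter began 63312 bp downstream of the Gsx2 start. A small K27R peak lay between them, from 51712 to 54511 bp. Merging of K27R peaks up to 10000 bp apart would join these peaks, so the separation in K27R depends on how peaks were joined. Chic2, on the other side of Gsx2, was in no peak of any list.

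The edges of the member start peaks were compared between K27M and EZHIP on each side of the start. The K27M peak extended past the EZHIP peak on the upstream side in 7 of 8 members, the exception being Emx1, and on the downstream side in 8 of 8. The extension ranged from 4.4 kb (Gsx2) to 40.6 kb (En2) upstream in those 7, and from 4.6 kb (Gbx1) to 40 kb (En2) downstream. These distances depend on how peaks were joined. After merging of peaks up to 10000 bp apart, the extension of En2 was 21.4 kb upstream and 14.8 kb downstream, that of En1 was 2.4 kb upstream, that of Gbx2 was 1.6 kb upstream and that of Vax1 was 9.0 kb upstream. The count on the downstream side became 7 of 8, since the merged EZHIP peak of Vax1 ended 0.4 kb beyond its K27M peak, and the count on the upstream side stayed at 7 of 8.

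CpG islands were more numerous near the members than near most genes. The members had 3 to 7 islands within 50 kb with a median of 4.5, the median of all genes was 2, and 35.7% of all genes had at least 3.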
